A study of Caenorhabditis elegans with 2 samples.

Results

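MicroRNA genes are the loci from which worms make their short regulatory RNAs, and they are described here by how strongly chromatin at each of them was recovered with a tagged nuclear hormone receptor. Every gene of the microRNA class in the Ensembl annotation of assembly WBcel235 was taken, which gave 261 of 46890 annotated nuclear genes. The assay was ChIP-seq, which sequences the DNA that co-precipitates with a protein, and the material was intact animals of 1 Caenorhabditis elegans strain, OP208, with the genotype unc-119(ed3) III; wgIs208. Its integrated transgene wgIs208 carries a fusion of NHR-27 to enhanced green fluorescent protein, and an anti-GFP antibody pulled the fusion down from sonicated chromatin. Worms of both sexes were pooled as young adults at 78 h after synchronization by starvation at the L1 stage, and both libraries, labelled as biological replicates, carry the same alleles, so there was no untagged or mutant group to compare. Most labels name nhr-27 as the tagged gene, but a comment on the strain names NHR-270 instead. NHR-27 is used below. Whole worms mix all tissues, so a region cannot be assigned to a cell type.

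MicroRNAs are cut from hairpins in longer primary transcripts, and a mature strand loaded into an Argonaute protein recognizes messenger RNAs mainly by pairing through its seed, the bases near its 5′ end. Loci that share a seed form a family even when they lie far apart, and several worm families act redundantly. Nuclear hormone receptors bind DNA through a zinc-finger domain, and the receptor DAF-12 is known in this species for controlling microRNAs of the let-7 family during larval development.

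Mature sequences and regions that the results turn on are given first. All were read from the RefSeq genome of WBcel235 at coordinates in the Ensembl annotation or in the region lists. In the mature sequences, written 5′ to 3′, capitals mark the seed (bases 2 to 8). The miR-51 family is shown because it held most of the loci with a thresholded region, and its 6 members carry the identical seed ACCCGUA, on the 5′ arm of the hairpin in mir-51, mir-52 and mir-53 and on the 3′ arm in mir-54, mir-55 and mir-56.
mir-51: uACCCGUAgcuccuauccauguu
mir-52: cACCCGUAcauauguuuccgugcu
mir-53: cACCCGUAcauuuguuuccgugcu
mir-54: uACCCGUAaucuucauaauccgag
mir-55: uACCCGUAuaaguuucugcugag
mir-56: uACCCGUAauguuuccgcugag
The other mature strands shown belong to further loci with a thresholded region (lin-4, mir-80, mir-2214) and to let-7, which had none and is the founder of the family named after it.
lin-4: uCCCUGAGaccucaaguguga
mir-80: uGAGAUCAuuaguugaaagccga
mir-2214: aUUCGGUCcggagucaauggg
let-7: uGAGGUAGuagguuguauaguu

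The 201 bp centred on the summit are shown for 6 of the 7 thresholded regions, on the strand of the microRNA. In the first pair the summit lay on or beside the hairpin, and capitals mark the mature microRNA. These are the region of mir-51 (chrIV:11026020-11026220, minus strand) and that of mir-52 (chrIV:14033971-14034171, plus strand).
mir-51 region: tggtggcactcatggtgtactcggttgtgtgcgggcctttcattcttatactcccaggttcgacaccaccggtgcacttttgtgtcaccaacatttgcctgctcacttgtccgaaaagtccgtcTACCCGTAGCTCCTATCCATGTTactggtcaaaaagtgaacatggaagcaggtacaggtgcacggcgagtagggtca
mir-52 region: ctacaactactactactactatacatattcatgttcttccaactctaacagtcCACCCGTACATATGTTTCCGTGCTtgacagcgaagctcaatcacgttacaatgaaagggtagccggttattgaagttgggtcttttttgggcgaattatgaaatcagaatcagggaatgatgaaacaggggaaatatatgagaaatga
In the others capitals mark the short words that are counted further on, GAGAGA among them, on either strand. They are the region shared by mir-54, mir-55 and mir-56 (chrX:13145184-13145384, minus strand), those of mir-80 (chrIII:8865535-8865735, minus strand) and lin-4 (chrII:5901637-5901837, plus strand), and that of mir-2214 (chrIII:7278616-7278816, plus strand), whose summit lay inside the hairpin.
mir-54 to mir-56 region: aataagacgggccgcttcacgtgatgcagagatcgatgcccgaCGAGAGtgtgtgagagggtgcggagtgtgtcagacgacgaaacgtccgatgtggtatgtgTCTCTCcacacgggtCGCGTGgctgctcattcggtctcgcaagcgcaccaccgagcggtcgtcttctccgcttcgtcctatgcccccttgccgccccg
mir-80 region: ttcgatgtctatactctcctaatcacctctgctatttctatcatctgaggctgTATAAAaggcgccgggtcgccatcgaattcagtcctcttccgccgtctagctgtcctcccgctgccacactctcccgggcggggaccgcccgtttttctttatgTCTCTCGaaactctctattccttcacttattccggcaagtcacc
lin-4 region: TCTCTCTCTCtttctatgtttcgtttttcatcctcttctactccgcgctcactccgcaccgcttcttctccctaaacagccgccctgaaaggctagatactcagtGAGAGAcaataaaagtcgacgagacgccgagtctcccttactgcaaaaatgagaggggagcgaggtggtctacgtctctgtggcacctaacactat
mir-2214 region: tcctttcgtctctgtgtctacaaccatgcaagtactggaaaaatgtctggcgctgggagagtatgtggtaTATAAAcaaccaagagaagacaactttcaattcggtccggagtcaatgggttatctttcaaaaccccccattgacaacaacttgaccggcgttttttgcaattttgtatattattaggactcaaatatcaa

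Region lists of 30000 entries each were deposited for replicate 1, replicate 2 and the pooled reads, and a threshold on the irreproducible discovery rate (IDR), a measure of how well ranks repeat between replicates, had left 393 regions. The pooled list is labelled as peaks and background used as input for IDR, so a place in it alone does not mark binding. A region was assigned to a gene when its summit lay from 1000 bp upstream to 200 bp downstream of the gene's 5′ end. That window is called the gene's window, and a gene is called thresholded when it held a summit of the thresholded list. The 5′ end of a microRNA gene is in nearly every case the end of its hairpin and not a start of transcription. Signal is the authors' value for a region, with no stated scale. Regions are ranked within 1 list, and the mean ± SD of the replicates only describes their spread, over lists whose medians were 22.5 and 21.2. The number of reads behind a region is unknown. A control alignment went into the calls per the deposited notes, but no control values were analysed here, so the receptor's own part in a region was not tested. Intervals below are exact 95% binomial (Clopper-Pearson) intervals that cover counting error over loci only, and loci that share a region are not independent.

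Few microRNA genes stood in the thresholded list, and 5 of them were of the miR-51 family. A thresholded summit was found at 9 of the 261 microRNA genes (3.45%, interval 1.59 to 6.44%), against 495 of 46890 annotated genes (1.06%) and 182 of 19973 protein-coding genes (0.911%). The 9 loci were mir-51, mir-52, mir-54, mir-55, mir-56, mir-71, mir-80, lin-4 and mir-2214, and they shared 7 regions. By region the count is 7 of 393, since mir-54, mir-55 and mir-56 had 1 region in common. These shares are descriptions of 1 set of calls, and no test between gene classes was made.

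Any pooled region, whatever its rank, was found at 113 of the 261 microRNA genes (43.3%, interval 37.2 to 49.5%), with a median signal of 41.3 at their strongest regions. Across all annotated genes it was 27.6%, with a median signal of 40.1, and across protein-coding genes 32.4%, with a median of 39.7. The medians lie close together and just above the median of the whole pooled list, 38.1. Among genes with a pooled region, 7.96% of microRNA genes were thresholded, against 3.82% of all annotated genes and 2.81% of protein-coding genes. The tRNA and snoRNA genes, the only other small RNA classes counted in this way, stood higher on every count. Of the 612 tRNA genes 15.0% were thresholded and 78.3% had a pooled region, and of the 346 snoRNA genes 14.2% were thresholded and 63.9% had a pooled region.

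The members of the miR-51 family, the worm relatives of the vertebrate miR-99 and miR-100 family, are often named in a row but do not form 1 cluster. They lie at 3 places: mir-51 and mir-53 are 1579 bp apart on chromosome IV, mir-52 is 3007896 bp from mir-51 on the same chromosome and on the opposite strand, and mir-54, mir-55 and mir-56 lie within 307 bp on chromosome X. Each of the 3 places held a thresholded region, and the exception among the 6 loci was mir-53. Of the 46 seeds that at least 2 annotated microRNA loci share, ACCCGUA was the only one with more than 1 thresholded member, and the only one with thresholded members at more than 1 region.

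At mir-51 (IV:11026013-11026112, intergenic) the region had the highest signal of any microRNA gene in the pooled list and in that of replicate 1, counting summits in a window, while in replicate 2 the regions of mir-54 to mir-56 and of mir-80 were higher. Its signal was 146 in the pooled list, at rank 64, and 77.3 (rank 63) and 68.3 (rank 106) in the lists of replicates 1 and 2. The replicates were close, with a mean of 72.8 ± 6.32 (SD, n = 2). The pooled summit lay 8 bp upstream of the 5′ end and the summit of replicate 1 lay 5 bp downstream of it. Replicate 2 listed 2 regions there, with summits 110 bp downstream (68.3) and 90 bp upstream (55.9, rank 244). A further thresholded region of signal 105 (rank 226) lay 1699 bp downstream of the mir-51 5′ end, outside its window. The nearest 5′ end of a protein-coding gene, hrg-5, was 3065 bp from the mir-51 summit.

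Its neighbour mir-53 (IV:11027593-11027691) did not share in that signal. Its own strongest pooled region had a signal of 38.6, at rank 14430, and its signal in replicate 1 was 20.8 (rank 18767). Both values are near the medians of their lists. Replicate 2 had no region in the window, while a region of signal 24.8 (rank 8934) lay 270 bp downstream of the 5′ end, just outside it.

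At mir-54, mir-55 and mir-56, 3 hairpins on the strand opposite to their host gene F09A5.3, a single region lay upstream of all of them. The pooled summit was 190 bp upstream of mir-54, 360 bp upstream of mir-55 and 497 bp upstream of mir-56, in an intron of F09A5.3 and 3683 bp from that gene's 5′ end. Its signal was 133 in the pooled list (rank 88), 53.7 in replicate 1 (rank 325) and 76.4 in replicate 2 (rank 62), with a mean of 65.1 ± 16.0 (SD, n = 2). Both replicates placed it above rank 393, the length of the thresholded list. Besides mir-51, this was the only microRNA region to do so. A further microRNA gene, F09A5.15, is annotated on the other strand across mir-55, with its own window on the far side. Its strongest pooled region had a signal of 62.1 (rank 2278), with 48.0 (rank 546) in replicate 1. The pooled and replicate 1 summits lay 420 and 423 bp upstream, whereas the strongest region of replicate 2 in the window, of 16.3 (rank 27975), was a separate one 890 bp upstream, and replicate 2 had no region that overlapped the pooled one.

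At mir-52 (IV:14034008-14034107, intergenic) the region was the last of the thresholded list, at rank 393 with a pooled signal of 92.1. The next pooled region, at rank 394 and not thresholded, also had a signal of 92.1, so this locus lies at the edge of the threshold. The summit fell inside the hairpin, 63 bp downstream of its 5′ end. Replicate 2 had a region of signal 57.6 (rank 219) at 94 bp. In replicate 1 the strongest region in the window had a signal of 46.1 (rank 675) but lay 689 bp upstream, and the one overlapping the pooled region had 43.0 (rank 960). With that overlapping region the mean of the replicates was 50.3, against 51.8 ± 8.17 (SD, n = 2) with the strongest ones.

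**Figure D1:**
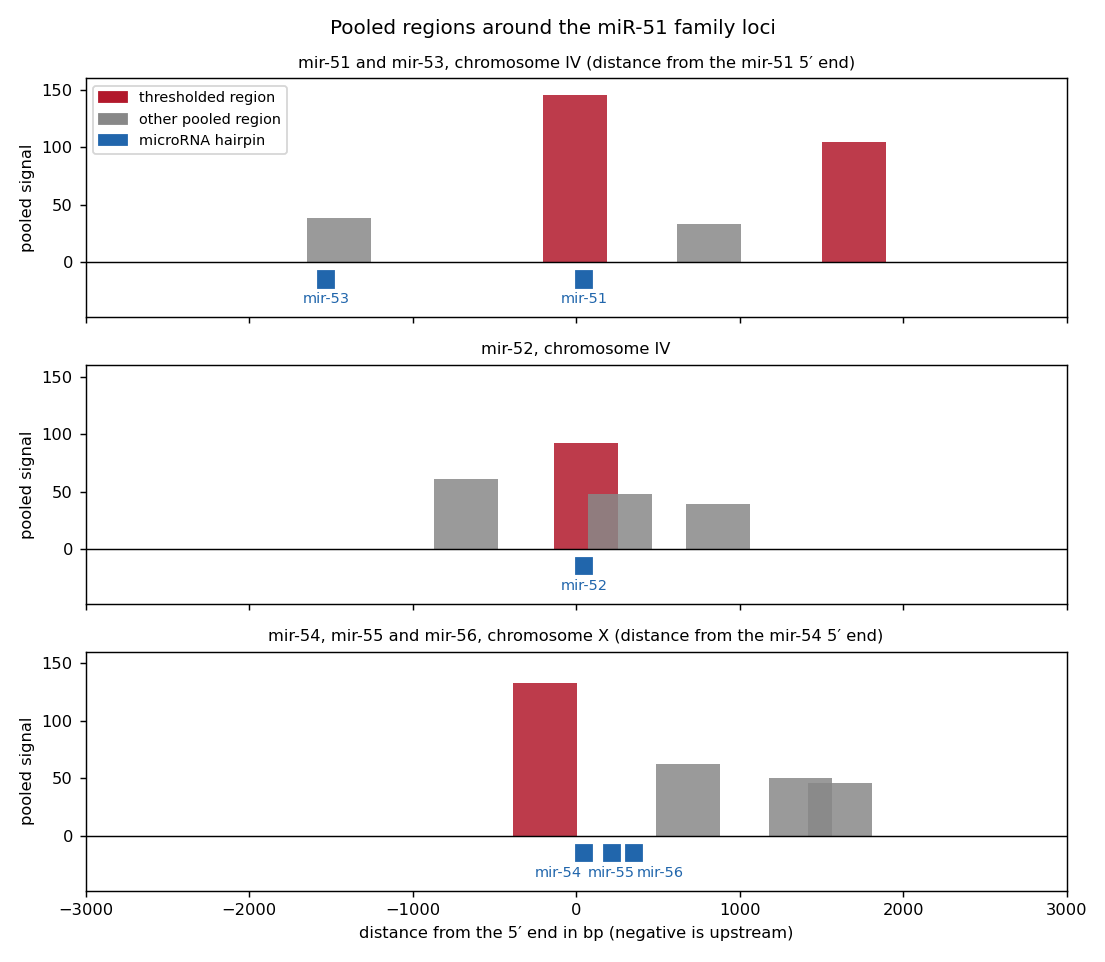
Pooled regions within 3000 bp of the miR-51 family loci, drawn to scale as bars of their full width; the y axis is pooled signal on the authors' scale and the x axis is distance in bp from the 5′ end of mir-51, mir-52 or mir-54, with upstream negative. Red bars are thresholded regions, grey bars are other pooled regions and blue boxes are hairpins; the bars at mir-51 (146), mir-52 (92.1) and upstream of mir-54 (133) are red, while the bar at mir-53 (38.6) is grey.

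The miR-51 family regions had little sequence in common around their summits. The longest exact run shared between the 201 bp windows, on either strand, was 9 bp for mir-51 and mir-52, 8 bp for mir-51 and the mir-54 to mir-56 region, and 7 bp for mir-52 and the mir-54 to mir-56 region. Pairs that include other families shared runs of 6 to 11 bp. The mature strands printed above share the 7 letters of the seed in all 6 members, and the windows of mir-51 and mir-52 include that seed.

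Outside that family, lin-4, the founding microRNA that represses lin-14 to time larval cell divisions, had an isolated region. It was the only pooled region within 3 kb. The pooled summit lay 517 bp upstream of the 5′ end (II:5902254-5902347), in an intron of its host F59G1.4, and the summits of the replicates lay 517 and 515 bp upstream. Pooled signal was 97.1 (rank 318), and the replicates gave 46.9 (rank 614) and 50.7 (rank 397). Their mean of 48.8 ± 2.63 (SD, n = 2) had the smallest SD of the 7 thresholded regions. Neither replicate alone placed it above rank 393. A window of 500 bp upstream leaves lin-4 out. Its seed partner mir-237 had no thresholded region.

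For mir-71, which promotes a long adult life, the region lay in an intron of its host ppfr-1, a protein phosphatase regulatory subunit gene, 280 bp upstream of the 5′ end (I:9379927-9380020). Pooled signal was 101 (rank 279), with 45.6 (rank 716) in replicate 1 and 54.1 (rank 293) in replicate 2, a mean of 49.8 ± 6.03 (SD, n = 2). The 5′ end of ppfr-1 was 9284 bp away. In the same host, mir-2, whose 5′ end is 7155 bp from that of mir-71, had a weaker pooled region of signal 57.9 (rank 3098).

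At mir-80, one of the bantam family of abundant microRNAs that affect body size, the replicates differed more. The pooled region (summit 268 bp upstream of III:8865270-8865367, intergenic) had a signal of 97.2 (rank 314). Replicate 1 gave 40.7 (rank 1280) with a summit 162 bp upstream, and replicate 2 gave 70.2 (rank 96) with a summit 334 bp upstream. The mean was 55.5 ± 20.9 (SD, n = 2). Of its cluster partners on the same strand, mir-238, 2058 bp away, had a pooled signal of 42.6 (rank 10461) and mir-90, 8717 bp away, had 65.3 (rank 1771).

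The region at mir-2214 had its summit in the hairpin itself, 1 bp downstream of the 5′ end (III:7278715-7278778), in an intron of B0361.11. Pooled signal was 101 (rank 274). Replicate 1 gave 62.3 (rank 172) and replicate 2 gave 32.2 (rank 3163), so its rank rested on replicate 1. The mean was 47.3 ± 21.3 (SD, n = 2). The regions at mir-2214, mir-71, mir-80, lin-4 and mir-52 spanned pooled signals of 92.1 to 101, and their order is not resolved by replicates whose means lay between 47.3 and 55.5 with SDs of 2.63 to 21.3. The deposited −log10 q value was 2.59 for the regions of mir-51 and of mir-54 to mir-56 and lay from 1.94 to 2.27 for the other 5.

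**Figure D2:**
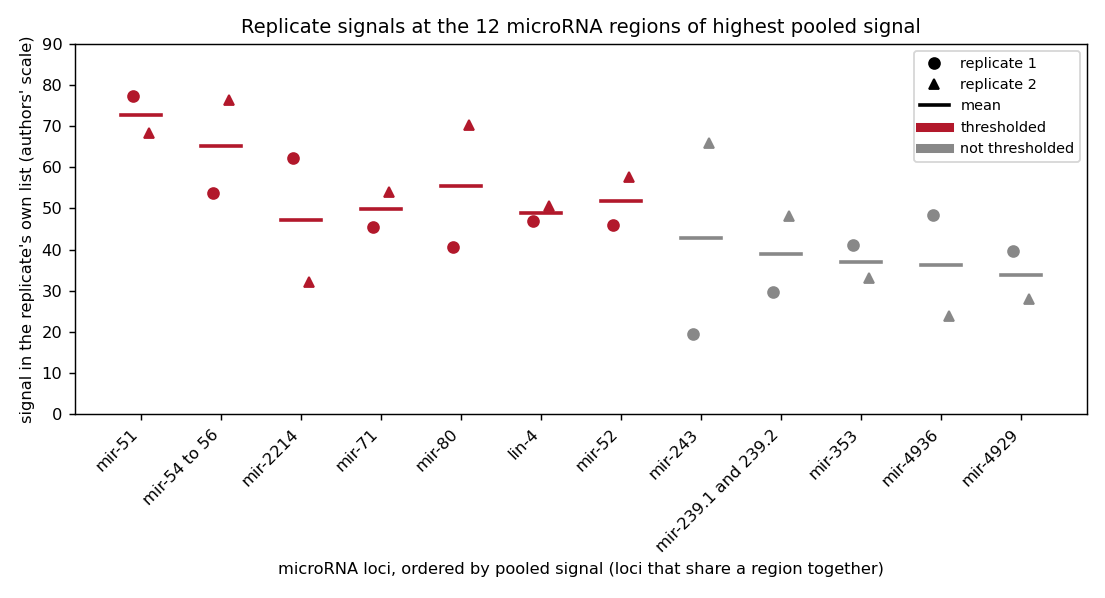
Signal of the strongest region in the window in each replicate's own list, for the 12 microRNA regions of highest pooled signal in descending order; circles are replicate 1, triangles are replicate 2 and bars are their means, on the authors' scale. Thresholded regions (red) have means from 47.3 to 72.8, and the 5 next regions (grey) have means from 33.9 to 42.7; single values overlap, as in mir-243 with 19.6 in replicate 1 and 65.9 in replicate 2.

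Across all loci the replicates listed similar numbers, 112 loci in replicate 1 and 106 in replicate 2. All 3 lists held a region at 72 loci, and 113 loci had a region in none of the 3 lists. A pooled region came with a region in only 1 replicate at 19 loci for replicate 1 and 18 for replicate 2, and with none in either at 4. Both replicates had a region in the window at 74 loci. After each signal was divided by the median of its own list, 59 of those 74 (79.7%) were within 1.5-fold of each other, against 75.7% of 3512 protein-coding genes. The lists of replicates 1 and 2 end at signals of 16.8 and 15.7, which narrows the spread of weak pairs from below. The paired regions are the strongest in the window and need not overlap, so these shares are a loose measure of agreement. Among the top 393 regions of a replicate's own list were 5 loci in replicate 1 and 8 in replicate 2, and 4 loci, mir-51, mir-54, mir-55 and mir-56, in both. By region, 2 of the 7 (28.6%) were in the top 393 of both replicates, against 170 of all 393 thresholded regions (43.3%).

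The strongest microRNA regions that were not thresholded began at mir-243, a microRNA known to be loaded into the Argonaute RDE-1. Its pooled signal of 85.6 (rank 531) came with 19.6 (rank 21756) in replicate 1 and 65.9 (rank 122) in replicate 2. The rank gap of 21634 was among the 3 widest in the upper part of the loci by pooled signal, with F09A5.15 (27429, between separate regions as given above) and mir-8212 (14722, pooled signal 43.9). The divergent pair mir-239.1 and mir-239.2, linked to stress responses and lifespan, shared a region of signal 83.3 (rank 596). It had 29.7 in replicate 1 and 48.2 in replicate 2, and its summit was 145 bp upstream of mir-239.1 and 901 bp upstream of mir-239.2. A small RNA gene of another class lay within 200 bp of that summit, and its part in the signal was not tested. Lower still was mir-353 in the ribosomal protein gene rpl-24 (76.8, rank 831), with its summit 976 bp upstream, near the edge of the window. Then came mir-4936 (75.5, rank 898) and mir-4929 (72.4, rank 1081), with summits 62 and 25 bp downstream.

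Loci in clusters, those with another microRNA gene on the same strand and its 5′ end within 10 kb, were compared with single loci. Of 81 clustered loci 6 were thresholded (7.41%, interval 2.77 to 15.4%) through 4 regions, against 3 of 180 single loci (1.67%, interval 0.345 to 4.79%) through 3 regions. A pooled region was found at 53.1% of clustered loci, with a median signal of 43.9, against 38.9% of single loci, with a median of 39.9. The intervals for thresholded loci overlap. The 4 and 3 thresholded regions come from classes of unlike size, with 29 pooled regions at clustered and 68 at single loci. The clustered loci that were thresholded were mir-51, mir-54, mir-55, mir-56, mir-71 and mir-80, and the single ones were lin-4, mir-52 and mir-2214. In 3 of the 4 clusters concerned a partner was not thresholded at its own window, namely mir-53 beside mir-51, mir-2 beside mir-71, and mir-238 and mir-90 beside mir-80. In the top 393 of replicate 1 alone the share of single loci was 0.556% (1 of 180) and that of clustered loci 4.94% (4 of 81), and in those of replicate 2 alone the shares were 1.11% and 7.41%.

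Loci inside introns of protein-coding genes were set against intergenic loci. Of 97 intronic loci 6 were thresholded (6.19%, interval 2.30 to 13.0%) through 4 regions, against 3 of 152 intergenic loci (1.97%, interval 0.409 to 5.66%) through 3 regions. A pooled region was listed at 55.7% of intronic loci, with a median signal of 46.5, against 34.2% of intergenic loci, with a median of 38.2. The intervals for having any pooled region were 45.2 to 65.8% for intronic and 26.7 to 42.3% for intergenic loci. They count loci that share a region separately, with 54 intronic loci through 47 regions and 52 intergenic loci through 45. Among single loci the shares were 45.2% (interval 33.5 to 57.3%) for intronic and 32.3% (interval 23.1 to 42.6%) for intergenic loci, and these intervals overlap. Across all annotated genes the share was 27.6%. Of the 97 strongest pooled regions at microRNA genes, 29 (29.9%) had their summit in a protein-coding gene's window, a count not split by place. The part of host or neighbouring promoters in the intronic and intergenic shares was not tested. In the top 393 of replicate 1 alone 4.12% of intronic and 0.658% (1 of 152) of intergenic loci remained, and in those of replicate 2 alone 5 intronic and 3 intergenic loci. Of the intronic loci, 30 lay on the strand opposite to the host, and 3 of these (10%) were thresholded by 1 region, that of mir-54 to mir-56. On the host strand 3 of 67 (4.48%) were thresholded, each by its own region. The other 12 loci overlapped an exon, and none of them was thresholded, which allows a share of up to 26.5% by the exact interval, while 7 had a pooled region.

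The 2 divisions overlap. Of the 24 loci that were both clustered and intronic, 21 (87.5%) had a pooled region and 4 were thresholded through 2 regions, but 7 of these 21 were the mir-35 family and 3 the mir-54 to mir-56 hairpins. Clustered intergenic loci had a pooled region in 21 of 56 (37.5%), single intronic loci in 33 of 73 (45.2%) and single intergenic loci in 31 of 96 (32.3%). By chromosome, thresholded loci numbered 3 of 74 on X through 1 region, 2 of 50 on IV, 2 of 27 on III, 1 of 49 on II, 1 of 33 on I and 0 of 28 on V. Chromosome III had the highest share of loci with a pooled region, 66.7%, and chromosome I the lowest, 27.3%. Over all annotated genes 27.6% had a pooled region and 1.06% were thresholded, and these shares are not split by chromosome here.

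**Figure D3:**
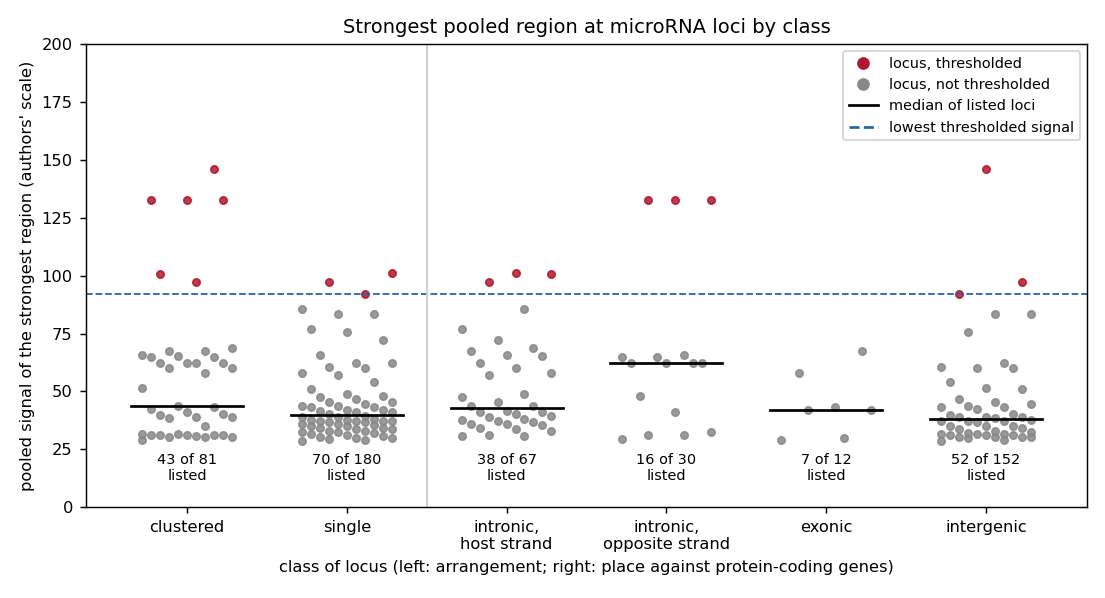
Pooled signal (authors' scale, y axis) of the strongest region at every microRNA locus that had one, by arrangement (clustered, single) and by place against protein-coding genes; each point is a locus, bars are medians over the listed loci, and the numbers give listed loci of all loci. Medians lie between 38.2 and 43.9 apart from intronic loci on the opposite strand (62.3), and the 9 red points on or above the dashed line at 92.1 are the thresholded loci. The value of 62.3 is the signal of 1 region that mir-35 to mir-38 share, and the 16 listed loci of that class have 9 regions.

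In the mir-35 family, which is needed for embryonic development, no locus was thresholded, and pooled signals lay between 62.3 and 65.5. Of its 8 members, 7 had a pooled region and these came from 3 regions on chromosome II: 1 of signal 62.3 shared by mir-35, mir-36, mir-37 and mir-38, 1 of 65.0 shared by mir-39 and mir-40, and 1 of 65.5 at mir-41. The 5′ ends of mir-35 and mir-41 are 700 bp apart, so the 3 regions are close neighbours. Upstream of mir-35 the pooled summit lay at 380 bp and that of replicate 2 at 384 bp (29.2), while replicate 1 had a region of 26.6 at 412 bp and a stronger one of 41.3 at 619 bp. At mir-39 and mir-40 the signal was 28.8 in replicate 1 and 37.8 in replicate 2, and the region at mir-41 had 38.5 in replicate 2. The replicates thus differed in which end of the cluster was higher. A weaker pooled region of 34.6 lay inside the cluster, 367 bp downstream of the mir-35 5′ end. The eighth member, mir-42, lies elsewhere on the chromosome with mir-43 and mir-44, and none of these 3 had a pooled region, while replicate 2 alone listed 1 of signal 32.9 upstream of them.

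In the let-7 family, the loci that nuclear receptor signalling is known to reach in larvae, no member was thresholded. A pooled region of signal 51.4 (rank 5191) lay 661 bp upstream of mir-241, with 30.8 in replicate 1 and 26.4 in replicate 2. At mir-48 it was 39.7 (rank 13162), with 30.9 and 18.5 in the replicates. For mir-84 no list held a region. For let-7 itself the answer turned on the annotation, whose gene entry is a primary transcript of 1732 bp. No list held a region in the window of that entry's 5′ end, but in the window of the hairpin's 5′ end (X:14744173-14744271) a pooled region had a signal of 72.9 (rank 1044), with 31.6 (rank 4423) in replicate 1 and 41.5 (rank 970) in replicate 2. Measured from the hairpin, let-7 therefore had the highest signal of its family and still was not thresholded. This hairpin window was added after the data were seen. It changed no other locus in whether it had a pooled region.

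In the bantam family, mir-80 stood apart from the rest, of which mir-58.1 had a pooled signal of 49.0 (rank 6299), mir-82 had 32.9 (rank 22102) and mir-81 had none in any list. In the mir-44 family, mir-45 had a pooled signal of 60.4 (summit 144 bp downstream), mir-61 had 60.2, and mir-44 and mir-247 had no pooled region. A thresholded region of signal 120 (rank 131) had its summit 348 bp downstream of the mir-45 5′ end, outside the window. Replicate 1 had a region of signal 84.7 (rank 40) at 341 bp and no summit in the window, and replicate 2 had 41.9 (rank 939) at 144 bp. With any overlapping base counted in place of the summit, mir-45 became the tenth thresholded locus. A seed shared by mir-80 with 5 other annotated loci, GAGAUCA, had 1 thresholded member of 6. The bantam member mir-58.1 has the seed GAGAUCG and is not among these loci.

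**Figure D4:**
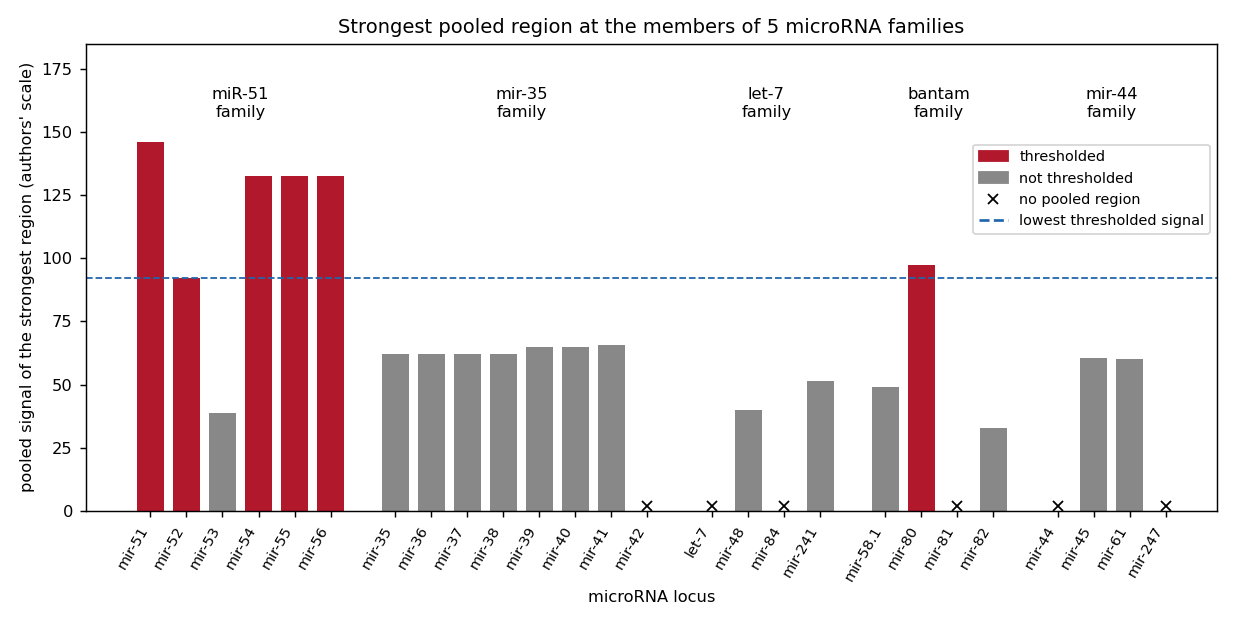
Pooled signal (authors' scale, y axis from 0) of the strongest region at each member of 5 microRNA families; red bars are thresholded, grey bars are not, crosses mark loci without a pooled region in the window, and the dashed line is the lowest thresholded signal, 92.1. Of the miR-51 family 5 of 6 bars reach the line, against 1 of 4 in the bantam family and none in the mir-35, let-7 and mir-44 families; let-7 is drawn from the 5′ end of its annotated gene.

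Several microRNAs with well-known roles had no pooled region. They included lsy-6, which sets left-right asymmetry of the ASE taste neurons, mir-1 of muscle, mir-124 of neurons, mir-34 and mir-60. Single replicates listed weak regions at mir-1 (17.1, replicate 2) and mir-124 (22.7, replicate 1), whereas lsy-6, mir-34 and mir-60 had none in any list. At mir-240 and mir-786, whose cluster is known for timing defecation through the intestine, no region was pooled. The replicates listed separate regions for mir-240, of 19.8 at 908 bp upstream in replicate 1 and of 24.1 at 162 bp upstream in replicate 2. The region of replicate 2 also lay in the window of mir-786, 291 bp upstream. Of 43 loci named whatever their values, 8 had no region in any list.

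Summits lay mostly upstream. For the 113 loci with a pooled region the median offset of the summit from the 5′ end was -254 bp, 88 (77.9%) were upstream and 51 (45.1%) were within 200 bp. For 6477 protein-coding genes the same values were -326 bp, 78.8% and 39.3%. The window itself reaches 5 times farther upstream than downstream, so an upstream majority is built into the assignment for both classes. Of the 9 thresholded loci, the summit was upstream at 7 and inside the hairpin at mir-52 and mir-2214. In all, 13 of the 113 summits lay inside the microRNA gene. A single pooled region stood in the window at 92 loci, 2 at 15 loci and 3 at 6 loci.

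**Figure D5:**
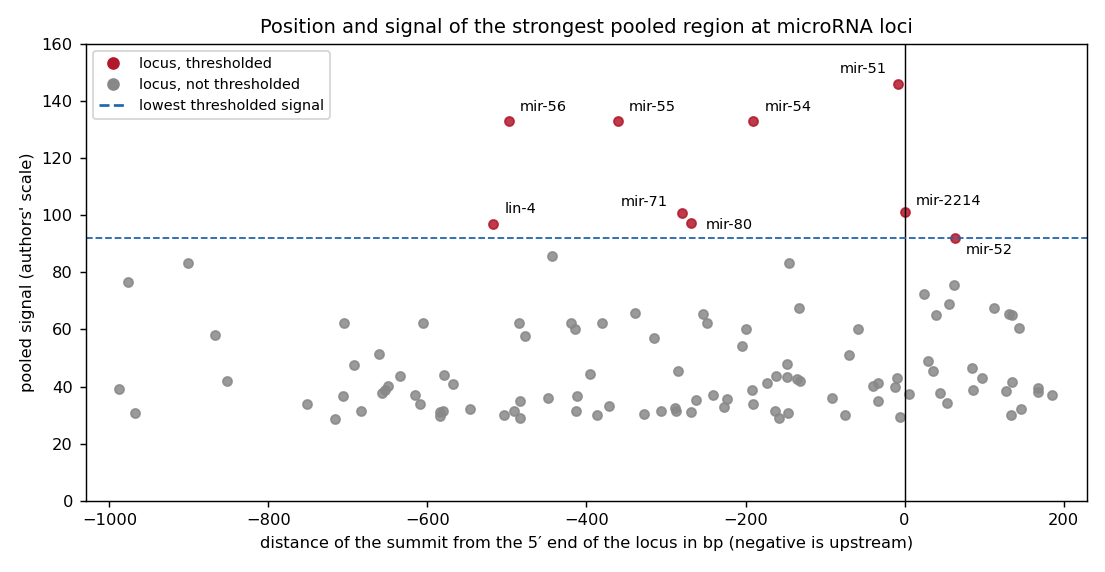
Distance of the strongest pooled summit from the 5′ end of the locus in bp (x axis, upstream negative) against its pooled signal on the authors' scale (y axis) for the 113 loci with a region; red points are thresholded and labelled, grey points are not, and the dashed line is the lowest thresholded signal. Thresholded summits lie from 517 bp upstream (lin-4) to 63 bp downstream (mir-52), within the spread of the other loci.

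The 7 thresholded microRNA regions lay outside the windows of protein-coding genes and away from tRNA and snoRNA genes, but mostly beside annotated noncoding RNA genes. None had its summit in the window of a protein-coding gene, against 42.5% of all 393 thresholded regions and 29.9% of the 97 strongest pooled regions at microRNA genes. None lay within 200 bp of a gene of the tRNA, snoRNA, snRNA or rRNA class, against 32.6% of all thresholded regions and 3.09% of the 97. In the annotation 6 of the 7 had a gene of the unclassified noncoding RNA (ncRNA) class within 200 bp of the summit, against 24.9% of all thresholded regions, 23.7% of the 97 and 6.52% of all 30000 pooled regions. For mir-51 it was F36H1.17, 11 bp from the summit, and for the mir-54 to mir-56 region F09A5.11, 13 bp away. At mir-52 an ncRNA gene on the other strand spanned the summit, and at mir-80 no such gene was found. The count of ncRNA genes was added after the regions had been seen, so it is a description of these regions only. The part of these ncRNA genes in the signal was not tested.

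Sequence words were counted within 100 bp of each summit on either strand. GAGAGA, a repeat of GA dinucleotides, was in 4 of the 7 thresholded microRNA regions (57.1%: those of mir-54 to mir-56, mir-71, mir-80 and lin-4), against 26.8% of the 97 strongest microRNA regions, 27.5% of all thresholded regions and 15.1% of all pooled regions. In the lin-4 region printed above it is both at the start, as a run of TC repeats on the strand shown, and past the middle. CGAGAG, which can overlap GAGAGA, was in 2 of the 7 (28.6%), against 21.1% of all thresholded regions. CACGCG was also in 2 of the 7 (28.6%), against 12.7% of all thresholded regions. The words AGGTCA and AGTTCA, which resemble half-sites of nuclear receptors, were in none of the 7, against 6.87% and 13.0% of all thresholded regions and 5.57% and 11.8% of all pooled regions. The word TGATAA, recognized by GATA factors, was in none of them either, against 9.67% of all thresholded regions. TATAAA was in the regions of mir-80 and mir-2214. With 7 regions each match moves a share by about 14.3 points, a match is not a site, and no match says only that the letters are not in this window.

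Base composition varied among the 7 regions. GC content over the 201 bp was 61.7% for the mir-54 to mir-56 region, 50.2 to 52.2% for those of mir-51, mir-71, mir-80 and lin-4, 40.3% for mir-2214 and 39.3% for mir-52. The median was 51.7%, against 42.8% for the 97 strongest microRNA regions, 45.3% for all thresholded regions and 40.8% for all pooled regions. The regions with the summit in the hairpin, mir-52 and mir-2214, were the lowest of the 7 in GC content, and those with GAGAGA lay between 50.2 and 61.7%. Words with many G and C letters are more frequent where GC content is high, and that share in the counts above was not tested.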

How the data were processed

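Regions came from 2 libraries, labelled as biological replicates, of an anti-GFP ChIP in 1 group of young adults, sonicated to 200 to 800 bp per the labels. According to the deposited notes, both alignments and that of a control, on ce11 (WBcel235), went into the region calls. The aligner, peak caller and IDR threshold are not given in the sources used here, and the control is not analysed here. Signal, as deposited, has no stated scale and was used to rank regions. The authors' −log10 q value was only quoted.

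Genes were the 261 microRNA entries of Ensembl release 115, named through their WormBase IDs (all 261 had a RefSeq symbol, and 260 had the same coordinates in both annotations). Sequence came from the RefSeq genome. Counts, shares, medians and exact intervals were computed with Python 3.11.15, numpy 2.4.6 and scipy 1.17.1, figures with matplotlib 3.10.9, and the assignment was checked on simulated data. Replicate means are over each replicate's own list. No test was run, since there was 1 group and loci are not replicates.

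The loci named are those with a thresholded summit, the miR-51 family, the 6 next strongest, the 3 with the widest rank gap in the upper part by signal, and 43 loci whatever their values. Members, lists and words were chosen with earlier results of these data known. Alternatives changed the window, overlap rule, threshold, replicate, cluster distance and host strand.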

Additional observations from a re-analysis of the deposited data

How the results depend on the processing

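The 9 thresholded loci at 7 regions became 4 loci at 4 regions when the summit had to lie within 200 bp of the gene body, and 4 loci at 2 regions (mir-51, mir-54, mir-55 and mir-56) when the list was restricted to its regions above the median signal. Leaving out 1 replicate gave 5 to 8 loci at 3 to 6 regions. With replicate 1 alone mir-51, mir-54, mir-55, mir-56 and mir-2214 remained, and with replicate 2 alone mir-243 joined while lin-4 and mir-2214 dropped out. The gene body rule gave a share of 2.47% for clustered loci and 2.06% for intronic loci. The restriction to signals above the median gave 0% (0 of 180) for single loci. The median pooled signal was 40.8 with 500 bp upstream and 41.7 with 2000 bp, and 24.0 to 24.3 in the single replicates, whose lists have their own scale. A window of 500 bp upstream kept all thresholded loci except lin-4, and 2000 bp kept all 9. Measuring from the hairpin, added after seeing the data, gave 9 loci, 7 regions and 114 loci with a pooled region. Counting any overlapping base gave 10 loci at 8 regions, with mir-45 added. Small numbers make the shares unstable: without replicate 2 the single share was 0.556% and the intergenic share 0.658% (1 locus each), and above the median signal the intronic share was 3.09% and the intergenic share 0.658%. Of 32 named loci with both replicates, the signal without 1 replicate was over 1.5 times from the mean at 3: mir-243 (19.6 and 65.9, mean 42.7), F09A5.15 (48.0 and 16.3, mean 32.2) and mir-4936 (48.5 and 23.8, mean 36.2). Read depth is unknown, so nothing here carries a counting error of reads. No paired analysis was possible because there is 1 group.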

Other observations

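Loci with low numbers in their names, lin-4, let-7, lsy-6 and mir-1 to mir-90, were among the first worm microRNAs to be cloned. After the values had been seen they were counted apart: 8 of 59 were thresholded (13.6%, exact interval 6.04 to 25.0%) through 6 regions, against 1 of 202 other loci (0.495%, interval 0.0125 to 2.73%). A pooled region was listed at 64.4% of them, with a median signal of 60.3, against 37.1% of the others, with a median of 37.6. The exception among the others was mir-2214. The division was chosen with the values known, so it is a description of these loci only.

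The word GGTTCGA, noticed in the mir-51 region printed above and then counted, was in that region and in none of the other 6 thresholded microRNA regions. It was in 13.2% of all thresholded regions, 2.50% of all pooled regions and 55.4% of the 74 thresholded regions within 200 bp of a tRNA gene. No annotated tRNA gene lay within 200 bp of the mir-51 summit. The annotated ncRNA gene F36H1.17 (IV:11026131-11026219, minus strand, 89 bp) covers the part of the window upstream of the hairpin in which the word stands. Whether that gene is transcribed in these worms was not measured.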
